A study of Mus musculus with 18 samples.

Results

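Expression of 10 genes of glucocorticoid signalling was followed through the first days of acute myocardial infarction (AMI) in the mouse. The genes were chosen by symbol, as the 2 corticoid receptors (Nr3c1 and Nr3c2), 6 genes known to respond to glucocorticoids (Fkbp5, Tsc22d3, Zbtb16, Sgk1, Errfi1 and Hif3a) and the transcription factors C/EBP beta and C/EBP delta (Cebpb and Cebpd). All 10 are among the 24419 symbols of the expression table, and all 10 are among the 13333 that reached an FPKM of 1 in at least 1 mouse and were tested. FPKM counts sequenced fragments per kilobase of transcript, scaled to the mapped total of each library, so that levels of different genes can be set side by side. The other 9 were above 1 FPKM in every mouse, while Hif3a passed this filter only through mice at 1 h and 6 h, so that counts over the 9 genes are given too where they differ.

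RNA came from heart tissue of 18 male C57BL/6 mice aged 8 weeks, 6 groups of 3 mice. In 5 groups the left anterior descending coronary artery was tied, and infarcted left ventricle was taken 10 min, 1 h, 6 h, 24 h or 72 h later. The controls of the labels are the sham-operated mice of the study. All groups had sodium pentobarbital (50 mg/kg) as anaesthetic, and the first of the 6 times of the study is 0 min, which leaves that time for the sham mice, although no source used here says so of them outright. An effect of the ligation therefore cannot be told apart from effects of anaesthesia, of recovery from surgery or of the hour of the day. Each library is 1 mouse, as far as the labels say, and the p-values below measure the spread between mice.

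Glucocorticoids are adrenal hormones released under stress. They enter cells and bind the glucocorticoid receptor, which leaves a complex with heat shock proteins and FKBP chaperones, moves to the nucleus and switches genes on or off at glucocorticoid response elements. In cardiomyocytes the mineralocorticoid receptor can also be occupied by glucocorticoids, and C/EBP beta and C/EBP delta are basic leucine zipper factors that drive acute-phase and inflammatory genes and often act beside the glucocorticoid receptor.

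Some facts on the libraries bear on what follows. The table has no read counts, and relative depth, taken from the lowest FPKM of each library, lay between 0.812 and 1.32 of that of sham mouse 1. Cardiomyocyte markers (Tnnt2, Myh6, Actn2, Ryr2, Myl2 and Pln) summed to 41956 to 45028 FPKM in the sham mice and 15531 to 19147 FPKM at 72 h, none of them at 0. At 6 h, mouse 1 stood apart, with 94.1 FPKM summed over the atrial genes Myl7, Sln and Myl4, a list written after the values were seen, against 1.43 to 3.05 FPKM in the other 17 mice. The same mouse and mouse 3 at 24 h had the highest sums of the 5 neutrophil markers in the table (S100a8, S100a9, Cxcr2, Retnlg and Csf3r), 997 and 965 FPKM against 2.32 to 4.99 FPKM in the sham mice.

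Each time point was compared with sham by limma on log2(FPKM + 1), and a gene is called changed at a Benjamini-Hochberg adjusted p under 0.05 over every gene tested. On this scale a log2 fold change understates the change of genes at low FPKM. At 10 min none of the 10 genes was called by limma, beside 0.248% of all genes called higher and 0.0978% called lower. At an unadjusted p under 0.05, 3 of the 10 genes (Sgk1, Errfi1 and Cebpd, all higher) and 1955 of all genes passed at 10 min. At 1 h, 4 genes rose (Sgk1, Errfi1, Cebpb and Cebpd) and 0 fell, against 0.669% and 0.0526% of all genes. At 6 h, 7 rose (6 without Hif3a) and 2 fell, against 11.6% and 16.8% of all genes. At 24 h, 5 rose and 2 fell, against 26.2% and 11.4%. At 72 h, 4 rose and 5 fell (4 without Hif3a), against 53.1% and 24.2%. The median log2 fold change of the 10 genes was 0.09, 0.89, 1.27, 0.33 and -0.07 at the 5 times, that of the 9 genes without Hif3a was 0.11, 0.90, 1.45, 0.41 and 0.01, and that of all genes tested was 0.02, -0.02, -0.08, 0.13 and 0.29. The 5 comparisons share the same sham mice. Scaling moved the calls over all genes more than those of the 10 genes, from 1543 higher and 2233 lower at 6 h to 1976 and 1515 with median-of-ratios scaling, and from 7081 and 3226 at 72 h to 5243 and 4752, or 4278 and 5794 with quantile normalization. With both, 7 of the 10 genes rose and 2 fell at 6 h, and 4 rose and 6 fell at 72 h. The counts at 24 h were lower whichever sham mouse was left out. The number that rose was 1 without sham mouse 1, 3 without sham mouse 2 and 2 without sham mouse 3. The number that fell was 1 in each of these fits. Over all genes, 3496 higher and 1516 lower became 1262 and 366, 1319 and 399, and 1646 and 468 in the same fits. At 10 min, 2 genes (Sgk1 and Errfi1) were called higher without mouse 1 of that group. In that fit 47 of all 13286 genes tested were called higher and 18 lower. Mouse 1 had the highest value of both genes in its group.

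**Figure D1:**
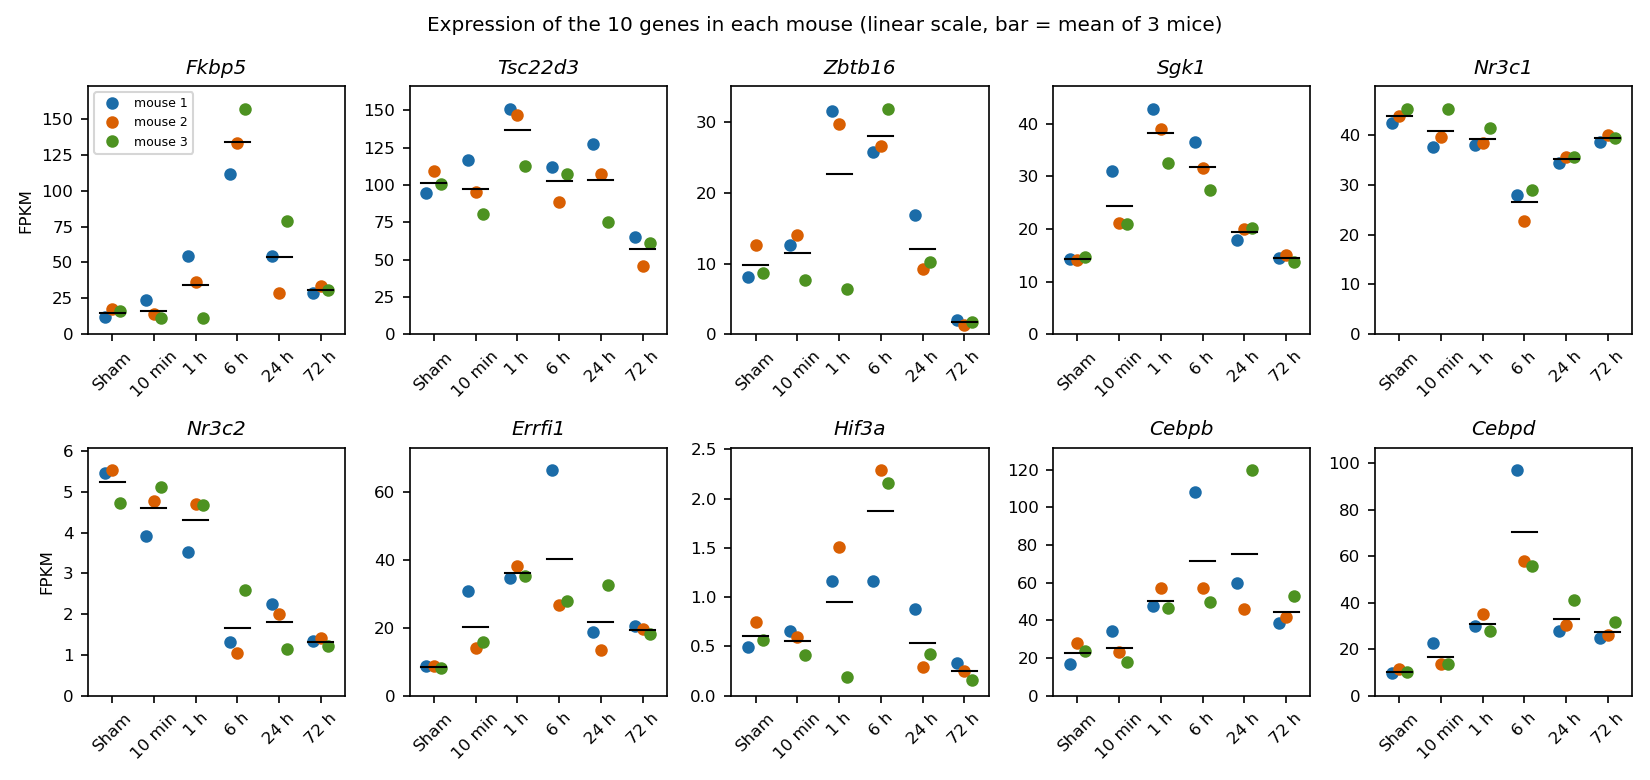
Expression of each of the 10 genes in FPKM (vertical axis, linear, from 0) in every mouse, by group (horizontal axis), with the mean of the 3 mice as a bar. Fkbp5, Zbtb16 and Hif3a had their highest means at 6 h, Nr3c1 its lowest mean at 6 h, and mouse 3 at 1 h lay below the other mice of its group for Fkbp5, Zbtb16 and Hif3a.

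**Figure D2:**
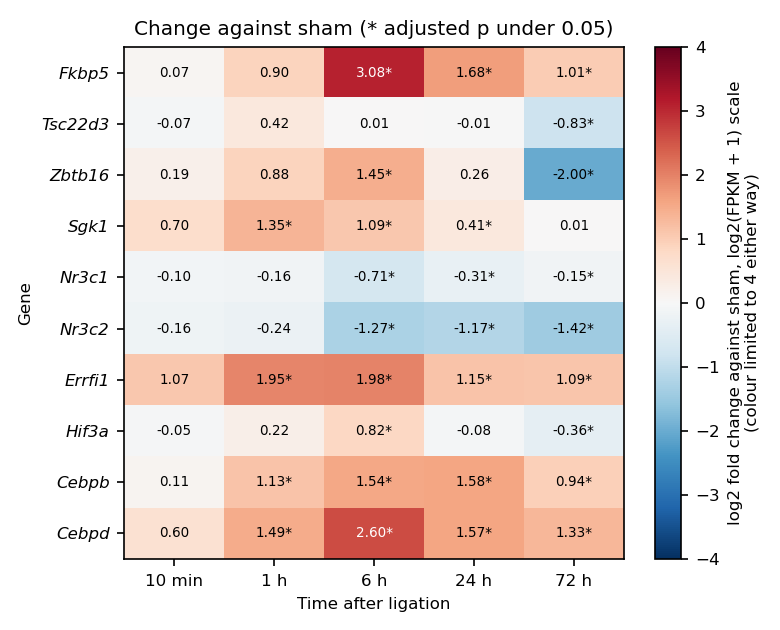
Heat map of the log2 fold change against sham, on the log2(FPKM + 1) scale, of the 10 genes (rows) at each time (columns), with an asterisk at an adjusted p under 0.05. The largest rise was that of Fkbp5 at 6 h (3.08) and the largest fall that of Zbtb16 at 72 h (-2.00).

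Between consecutive times, no gene was called by limma from 10 min to 1 h, beside 0.391% of all genes higher and 0.211% lower. At an unadjusted p under 0.05, Tsc22d3, Sgk1, Errfi1, Cebpb and Cebpd (all higher) passed, beside 1739 of all 13298 genes. Without mouse 1 at 10 min, Sgk1, Errfi1, Cebpb and Cebpd were called higher at 1 h than at 10 min. In that fit 65 of all 13288 genes tested were called higher and 17 lower. Mouse 1 had the highest value of each of these genes at 10 min, so that leaving it out favours these calls. From 1 h to 6 h, Fkbp5 and Cebpd rose and both receptors fell, against 9.32% and 11.2% of all genes. From 6 h to 24 h, 5 of the 10 genes fell (Fkbp5, Zbtb16, Sgk1, Hif3a and Cebpd; 4 without Hif3a) and 0 rose, while 12.5% of all genes rose and 1.94% fell. These 5 calls are fragile, since 1 remained without mouse 1 at 6 h, 0 without mouse 2 or mouse 3 at 6 h, 3 without mouse 1 at 24 h and 0 without mouse 2 at 24 h, with every log2 fold change of the 5 genes still negative. Over all genes, the number that fell was 37, 1, 1, 354 and 5 in these fits, in the same order, in place of 258. From 24 h to 72 h, Tsc22d3, Zbtb16 and Sgk1 fell and 0 rose, against 29.7% and 13.5% of all genes.

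The receptors fell. Nr3c1 encodes the glucocorticoid receptor and lies on chromosome 18. Its FPKM was 42.3, 43.8 and 45.2 in the sham mice, 37.5, 39.6 and 45.3 FPKM at 10 min, 37.9, 38.4 and 41.3 FPKM at 1 h, 28.0, 22.8 and 29.0 FPKM at 6 h, 34.3, 35.5 and 35.5 FPKM at 24 h, and 38.6, 40.0 and 39.4 FPKM at 72 h. The 6 h mice lay below every other mouse, and the 24 h and 72 h mice lay below all sham mice. The change against sham was -0.71 at 6 h (log2, SE 0.10, adjusted p = 0.00389), -0.31 at 24 h (adjusted p = 0.0183) and -0.15 at 72 h (adjusted p = 0.0426). The call at 24 h was lost without sham mouse 1, 2 or 3 (adjusted p = 0.066, 0.0781 and 0.0838). The call at 72 h was lost without sham mouse 1, 2 or 3 (0.0613, 0.103 and 0.142) and without 72 h mouse 1 or 3 (0.0725 and 0.0864). From 1 h to 6 h the fall was -0.55 (adjusted p = 0.0149), with an adjusted p of 0.0613 without 1 h mouse 2 and 0.0588 without 1 h mouse 3. Nr3c1 was higher at 72 h than at 6 h by 0.56 (adjusted p = 0.00238), while its rise from 6 h to 24 h, 0.40, was not called (adjusted p = 0.0685).

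Nr3c2 encodes the mineralocorticoid receptor and lies on chromosome 8 from 76899442 to 77245012 (mm10, plus strand, GENCODE release M21, as for the positions below). It was at 5.45, 5.53 and 4.72 FPKM in the sham mice, 3.92, 4.77 and 5.11 FPKM at 10 min, 3.53, 4.71 and 4.67 FPKM at 1 h, 1.32, 1.05 and 2.59 FPKM at 6 h, 2.25, 2.01 and 1.14 FPKM at 24 h, and 1.35, 1.41 and 1.21 FPKM at 72 h. All mice from 6 h on lay below all mice up to 1 h. The log2 fold change against sham was -1.27 at 6 h (SE 0.20, adjusted p = 0.00569), -1.17 at 24 h (adjusted p = 0.0056) and -1.42 at 72 h (adjusted p = 1.33e-06). At 6 h, Nr3c2 stood at place 39 from the lowest of the 13321 genes tested by log2 fold change. Its fall from 1 h to 6 h was -1.03 (adjusted p = 0.0186), and was not called without 1 h mouse 2 (0.0741) or 1 h mouse 3 (0.0637). Unlike Nr3c1, its level at 72 h was not called different from that at 6 h (-0.15, adjusted p = 0.529). The cardiomyocyte marker sum was 35225, 44145 and 37563 FPKM in mice 1, 2 and 3 at 6 h and 27891 to 34507 FPKM at 24 h, so that it overlapped sham at 6 h and lay below it at 24 h and 72 h. At 6 h, mouse 2 had a marker sum within the range of sham and the lowest Nr3c2 of its group. In that mouse Tnnt2, which alone gave 25866.5 FPKM of the sum, and Actn2 lay above all sham mice. Its Myh6, Ryr2, Myl2 and Pln (4531, 1476, 10278 and 1030 FPKM) lay below all sham mice. Of the 6 markers, 2 were called lower at 6 h, beside 16.8% of all genes. The part of cardiomyocyte content in the fall of Nr3c2 at 6 h, 24 h and 72 h was not tested, and in RNA from whole tissue fewer cells of a type and less RNA per cell cannot be told apart.

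Fkbp5 encodes FKBP51, a co-chaperone that binds the receptor complex, lowers its affinity for hormone and is itself induced by the receptor, in a short feedback loop. The gene lies on chromosome 17 from 28399094 to 28517527 (minus strand). Fkbp5 was at 12.0, 17.3 and 15.9 FPKM in the sham mice, 24.0, 14.2 and 11.3 FPKM at 10 min, and 54.9, 36.4 and 11.4 FPKM at 1 h. It then reached 112, 134 and 157 FPKM at 6 h, and had 54.5, 28.7 and 78.7 FPKM at 24 h and 28.8, 33.4 and 30.7 FPKM at 72 h. The groups at 6 h, 24 h and 72 h did not overlap sham, and the 6 h mice were above all others. The means were 15.1 ± 2.77 FPKM in sham and 134 ± 22.7 FPKM at 6 h (SD, n = 3), a ratio of 8.92. The log2 fold change was 3.08 at 6 h (SE 0.16, adjusted p = 0.00015), place 54 from the highest of 13321 genes, then 1.68 at 24 h (adjusted p = 0.0124) and 1.01 at 72 h (adjusted p = 9.61e-05). Without sham mouse 1 the adjusted p at 24 h was 0.0555. From 1 h to 6 h Fkbp5 rose by 2.18 (adjusted p = 0.0231), which was not called without 1 h mouse 2 (0.0623) or 6 h mouse 3 (0.0543). From 6 h to 24 h it changed by -1.40 (adjusted p = 0.0372), and the adjusted p was 0.0784, 0.113 and 0.0978 without 6 h mouse 1, 2 and 3, and 0.0559 and 0.0813 without 24 h mouse 1 and 2. The difference between 24 h and 72 h, -0.67, was called only without 24 h mouse 2 (-1.06, adjusted p = 0.00548).

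Zbtb16 encodes PLZF, a zinc finger repressor that is a sensitive target of the glucocorticoid receptor in many tissues. It lies on chromosome 9 from 48654297 to 48836222 (minus strand). Zbtb16 was at 8.04, 12.7 and 8.62 FPKM in the sham mice, 12.6, 14.1 and 7.65 FPKM at 10 min, 31.7, 29.8 and 6.43 FPKM at 1 h, 25.8, 26.6 and 32.0 FPKM at 6 h, 17.0, 9.23 and 10.2 FPKM at 24 h, and 1.95, 1.28 and 1.75 FPKM at 72 h. It rose at 6 h by 1.45 on the log2 scale (SE 0.17, adjusted p = 0.00184) and fell below sham at 72 h (-2.00, SE 0.17, adjusted p = 7.32e-06), where it stood at place 41 from the lowest of 13329 genes. The 72 h mice lay below every other mouse. The change from 6 h to 72 h was -3.45 (adjusted p = 6.12e-07), place 11 from the lowest of 13331 genes, and that from 24 h to 72 h was -2.26 (adjusted p = 0.000293), place 13 of 13330. The step from 6 h to 24 h, -1.19 (adjusted p = 0.023), was not called without 6 h mouse 1, 2 or 3 (0.0592, 0.0852 and 0.0672) or 24 h mouse 2 (0.083).

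Hif3a, on chromosome 7 from 17031507 to 17062427 (minus strand), encodes the third hypoxia-inducible factor alpha subunit, forms of which restrain the other two, and is also induced by glucocorticoids. Its level was low throughout, 0.499, 0.749 and 0.563 FPKM in the sham mice and 0.653, 0.598 and 0.410 FPKM at 10 min. It was 1.17, 1.51 and 0.191 FPKM at 1 h, 1.17, 2.29 and 2.16 FPKM at 6 h, 0.879, 0.294 and 0.419 FPKM at 24 h, and 0.334, 0.254 and 0.162 FPKM at 72 h. Every 6 h mouse was above, and every 72 h mouse below, all sham mice. Since Hif3a was tested at all only because mice at 1 h and 6 h were above 1 FPKM, its calls are also given with every symbol tested. Hif3a rose by 0.82 at 6 h (log2, SE 0.17, adjusted p = 0.013, or 0.0275 with every symbol tested) and fell by 0.36 at 72 h (adjusted p = 0.0105, or 0.00614). With all 18 mice in one fit the adjusted p at 72 h was 0.162. The 6 h call was not kept without sham mouse 1 (adjusted p = 0.0552) or sham mouse 3 (0.0517). From 6 h to 24 h the change was -0.90 (adjusted p = 0.0353, or 0.0598 with every symbol tested), with an adjusted p of 0.117 and 0.0921 without 6 h mouse 2 and 3, and 0.113 and 0.0669 without 24 h mouse 2 and 3.

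Tsc22d3 encodes GILZ, a leucine zipper protein that carries part of the anti-inflammatory action of glucocorticoids, and lies on chromosome X from 140539528 to 140600659 (minus strand). It had the highest level of the 10 genes in the sham group, 94.6, 109 and 101 FPKM. It was at 117, 95.4 and 80.5 FPKM at 10 min, 151, 147 and 113 FPKM at 1 h, 112, 88.9 and 107 FPKM at 6 h, 128, 107 and 75.5 FPKM at 24 h, and 65.1, 45.6 and 61.4 FPKM at 72 h. The 3 mice at 1 h were above all sham mice, but the change, 0.42, was not called (adjusted p = 0.233). At 6 h, where Fkbp5 was highest, Tsc22d3 had a log2 fold change of 0.01 (adjusted p = 0.936). It fell at 72 h, by 0.83 against sham (SE 0.13, adjusted p = 0.000362) and by 0.82 against 24 h (adjusted p = 0.0188). The latter was not called without 24 h mouse 1 or 2 (0.0587 and 0.0558) or 72 h mouse 2 (0.0693).

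At 1 h the 3 mice did not respond alike. In mouse 3, Fkbp5 (11.4 FPKM), Zbtb16 (6.43 FPKM) and Hif3a (0.191 FPKM) lay below all sham mice, while in mice 1 and 2 all 3 genes lay above them. On the log2 scale, mouse 3 differed from the sham mean by -0.36 for Fkbp5, -0.51 for Zbtb16 and -0.43 for Hif3a. In the same mouse, Sgk1 (1.13), Errfi1 (1.92), Cebpb (1.02) and Cebpd (1.34) stood above the sham mean, as in the other mice. In mice 1 and 2 the values were 1.52 and 1.39 for Sgk1 and 1.90 and 2.03 for Errfi1. They were 1.05 and 1.31 for Cebpb and 1.45 and 1.67 for Cebpd. Mouse 3 was thus the lowest for Sgk1, Cebpb and Cebpd, and also for Tsc22d3 (0.15, against 0.57 and 0.53 in mice 1 and 2). The mean correlation of mouse 3 with the other 2 mice of its group over all genes tested was 0.9926, against 0.9925 and 0.9935 for mice 1 and 2. Over all genes, however, 147 were called higher and 30 lower at 1 h without mouse 3. With all mice these counts were 89 and 7, without mouse 1 they were 79 and 6, and without mouse 2 they were 69 and 3. Without mouse 3, Fkbp5 was called higher at 1 h (log2 fold change 1.52, adjusted p = 0.0242), as were Zbtb16 (1.58, adjusted p = 0.0118) and Tsc22d3 (0.55, adjusted p = 0.0188), and Hif3a was not (0.54, adjusted p = 0.0764). Mouse 3 was singled out by its values of Fkbp5, Zbtb16 and Hif3a, so that these calls are a description only. Among 14 clock genes, mouse 3 was the one nearest the sham mean for 7, mouse 2 for 6 and mouse 1 for 1. The genes named next were chosen after their values were seen. Dbp was at 92.3 FPKM in mouse 3, 24.7 and 57.7 FPKM in mice 1 and 2, and 86.5 to 91.5 FPKM in the sham mice. Nr1d1 was at 63.9, 24.1 and 39.7 FPKM in mice 3, 1 and 2, against 59.4 to 70.0 FPKM in sham. For Ciart the log2 difference from the sham mean was -0.93, 0.14 and 0.32 in mice 1, 2 and 3. Mouse 3 was thus highest, but nearer to mouse 2 than to mouse 1. For Per1 it was 0.02, 0.47 and 0.26, with mouse 3 between the others. Mouse 3 was lowest for Per2 (0.56, 0.28 and -0.25) and for Cry1 (0.56, 0.15 and -0.15). The part of the hour of the day in the difference between these mice was not tested, since the labels give no clock times.

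**Figure D3:**
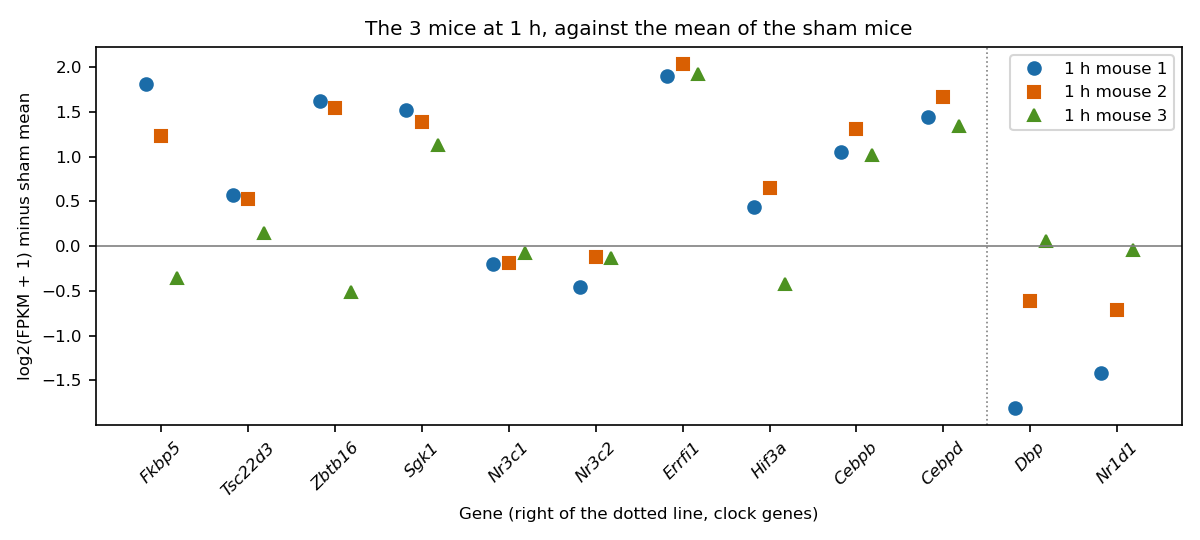
Difference of log2(FPKM + 1) from the sham mean (vertical axis) in each of the 3 mice at 1 h, for the 10 genes and, right of the dotted line, the clock genes Dbp and Nr1d1. Mouse 3 (triangles) lies below the line for Fkbp5, Zbtb16 and Hif3a and near it for both clock genes. It lies above the line, like the other mice, for Sgk1, Errfi1, Cebpb and Cebpd.

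The spread of the mice within all groups includes these 3 mice, and is given with and without them. With the group means taken away, the deviations of Zbtb16 and Hif3a had r = 0.867 over the 18 mice, those of Fkbp5 and Zbtb16 0.781, and those of Fkbp5 and Hif3a 0.725. Cebpb and Cebpd had r = 0.892, Errfi1 and Cebpd 0.872, and Errfi1 and Cebpb 0.85. Sgk1 had r = 0.658 with Errfi1, 0.533 with Cebpb and 0.734 with Cebpd. Between Fkbp5, Zbtb16 and Hif3a on one side and Sgk1, Errfi1, Cebpb and Cebpd on the other, r ran from -0.183 for Errfi1 and Hif3a to 0.5 for Fkbp5 and Sgk1. Without the 1 h mice, over 15 mice, Zbtb16 and Hif3a had r = 0.684, Fkbp5 and Zbtb16 0.438, and Fkbp5 and Hif3a 0.479, while Fkbp5 and Cebpb reached 0.615, so that Fkbp5 then ran no closer to Zbtb16 and Hif3a than to Cebpb. Within Sgk1, Errfi1, Cebpb and Cebpd the values were then 0.581 to 0.894, and between these 4 genes and Zbtb16 or Hif3a -0.465 to 0.152. The values of a pair come from the same libraries, and these correlations are a description only.

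Sgk1 encodes a serine/threonine kinase that acts on ion channels and cell survival, and its transcription responds within minutes to glucocorticoids, mineralocorticoids, serum and osmotic stress. It lies on chromosome 10 from 21882184 to 21999903 (plus strand). Its promoter is shown because, of 15 promoter windows of 7 of the 10 genes, it is the one with a whole glucocorticoid response element. Each window runs from 250 bases before to 50 bases after a RefSeq start on GRCm38.p6, and Zbtb16, Nr3c1 and Cebpd had none in the table used. The whole element was searched as AGAACA and TGTTCT 3 bases apart, which reads the same on both strands. It was found in 3 of all 32851 windows (0.00913%), and its first base lies 189 bases before one of the 6 Sgk1 starts. By GENCODE it is inside the Sgk1 gene and outside its exons. The window, chr10:21993640-21993939 on the plus strand, is printed with the whole element and 1 further copy of the hexamer in capitals.
Sgk1 promoter: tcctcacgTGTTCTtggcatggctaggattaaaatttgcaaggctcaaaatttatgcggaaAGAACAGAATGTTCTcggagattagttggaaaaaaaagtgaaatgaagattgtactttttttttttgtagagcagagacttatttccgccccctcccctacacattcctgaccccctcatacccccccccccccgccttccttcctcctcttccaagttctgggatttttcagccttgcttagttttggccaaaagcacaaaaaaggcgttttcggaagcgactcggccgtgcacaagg

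The hexamer alone (AGAACA on either strand, also counted where it is part of a whole element) was in 19.0% of all windows, and in 4 of the 15, 3 of Sgk1 and 1 of Tsc22d3. The Tsc22d3 window, chrX:140600473-140600772, is shown on the minus strand, that of the gene, with the hexamer in capitals.
Tsc22d3 promoter: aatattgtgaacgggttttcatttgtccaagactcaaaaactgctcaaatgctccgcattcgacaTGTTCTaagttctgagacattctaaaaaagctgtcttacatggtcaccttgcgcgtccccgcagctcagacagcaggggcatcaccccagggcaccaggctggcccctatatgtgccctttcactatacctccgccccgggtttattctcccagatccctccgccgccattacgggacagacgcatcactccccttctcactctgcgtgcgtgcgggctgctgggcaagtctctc
A C/EBP element (TTGCNNAA on either strand) was in 10.8% of all windows and in 2 of the 15, 1 of Sgk1 and 1 of Nr3c2. A match is a run of letters and was not tested for binding, and the elements of these genes can lie far outside such windows.

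Sgk1 was at 14.3, 14.1 and 14.6 FPKM in the sham mice, 31.1, 21.1 and 20.9 FPKM at 10 min, 42.9, 39.0 and 32.6 FPKM at 1 h, 36.5, 31.6 and 27.3 FPKM at 6 h, 17.8, 20.0 and 20.2 FPKM at 24 h, and 14.6, 15.1 and 13.7 FPKM at 72 h. Every mouse from 10 min to 24 h was above every sham mouse, and the 72 h mice overlapped them. Sgk1 rose on the log2 scale at 1 h (1.35, SE 0.10, adjusted p = 0.000493), 6 h (1.09, SE 0.11, adjusted p = 0.00119) and 24 h (0.41, adjusted p = 0.0134). At 10 min the change was 0.70 (SE 0.14, adjusted p = 0.0966), and without mouse 1 of that group it was 0.52 (adjusted p = 0.0316). The 24 h call was not kept without sham mouse 1, 2 or 3 (0.0621, 0.0623 and 0.0539). At 72 h the change was 0.01 (adjusted p = 0.866). This value depends on scaling, and was -0.28 (adjusted p = 0.00388) with median-of-ratios scaling and -0.37 (adjusted p = 0.000996) with quantile normalization, under which the log2 fold change of the middle gene tested moved from 0.29 to 0.04 and -0.12 at 72 h, and from 0.13 to 0.02 and -0.06 at 24 h. Sgk1 fell from 6 h to 24 h by 0.68 (adjusted p = 0.0257) and from 24 h to 72 h by 0.39 (adjusted p = 0.0156). The former was not called without 6 h mouse 1, 2 or 3 (0.0754, 0.0927 and 0.0522) or 24 h mouse 2 (0.0886), and the latter without 24 h mouse 2 (0.0502) or 72 h mouse 1 or 3 (0.0514 and 0.0801).

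Errfi1 encodes MIG6, a feedback inhibitor of the EGF receptor family that responds to glucocorticoids, growth factors and stress, and lies on chromosome 4 from 150853919 to 150868892 (plus strand). It was at 8.69, 8.83 and 8.13 FPKM in the sham mice, 30.9, 14.1 and 15.8 FPKM at 10 min, 34.7, 38.0 and 35.1 FPKM at 1 h, 66.4, 26.8 and 27.8 FPKM at 6 h, 18.6, 13.5 and 32.5 FPKM at 24 h, and 20.6, 19.5 and 18.2 FPKM at 72 h. All mice after ligation were above all sham mice. Errfi1 rose on the log2 scale at 1 h (1.95, SE 0.06, adjusted p = 1.01e-05), 6 h (1.98, SE 0.32, adjusted p = 0.00549), 24 h (1.15, adjusted p = 0.0198) and 72 h (1.09, adjusted p = 2.03e-06). At 10 min it stood at place 20 from the highest of 13297 genes, at 1.07, but was not called (SE 0.25, adjusted p = 0.135). Without mouse 1 at 10 min the value was 0.74 (adjusted p = 0.026). Mouse 1 at 6 h, which had the high atrial and neutrophil sums, set the mean of its group, and without it the change against sham was 1.57 (adjusted p = 0.000129) and that from 1 h to 6 h turned from 0.03 (adjusted p = 0.952) to -0.38 (adjusted p = 0.0309). The 24 h call was not kept without sham mouse 1, 2 or 3 (0.0687, 0.0646 and 0.0665).

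Cebpb, a gene of a single exon on chromosome 2 from 167688915 to 167690418 (plus strand), was at 16.9, 28.0 and 23.8 FPKM in the sham mice and 34.2, 23.2 and 18.0 FPKM at 10 min. It was at 47.7, 57.1 and 46.5 FPKM at 1 h, 108, 57.2 and 49.5 FPKM at 6 h, 59.9, 46.2 and 120 FPKM at 24 h, and 38.5, 42.0 and 52.8 FPKM at 72 h. From 1 h on, every mouse was above every sham mouse. Cebpb rose on the log2 scale at 1 h (1.13, SE 0.17, adjusted p = 0.0332), 6 h (1.54, SE 0.30, adjusted p = 0.0105), 24 h (1.58, SE 0.35, adjusted p = 0.0156) and 72 h (0.94, SE 0.18, adjusted p = 0.0012). At 1 h the call was lost without sham mouse 3 (adjusted p = 0.114) or without mouse 1, 2 or 3 of the 1 h group (0.103, 0.121 and 0.0502). At 24 h it was lost without sham mouse 1 (0.0632) or sham mouse 3 (0.0508). The high values of mouse 1 at 6 h and mouse 3 at 24 h came in the 2 libraries with the highest neutrophil sums. Without the former, the change at 6 h was 1.21 (adjusted p = 0.00817), and without the latter, that at 24 h was 1.19 (adjusted p = 0.00681).

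Cebpd, on chromosome 16 from 15887286 to 15891031 (plus strand), was at 9.57, 11.4 and 10.1 FPKM in the sham mice, 22.6, 13.7 and 13.7 FPKM at 10 min, 29.9, 35.0 and 27.7 FPKM at 1 h, 97.0, 58.0 and 55.7 FPKM at 6 h, 28.0, 30.2 and 41.0 FPKM at 24 h, and 25.0, 26.2 and 31.5 FPKM at 72 h. All mice after ligation were above all sham mice, and all 6 h mice were above all others. Cebpd rose on the log2 scale at 1 h (1.49, SE 0.10, adjusted p = 0.000332), 6 h (2.60, SE 0.21, adjusted p = 0.000475), 24 h (1.57, SE 0.15, adjusted p = 0.00205) and 72 h (1.33, SE 0.10, adjusted p = 4.59e-06), and was at 0.60 at 10 min (adjusted p = 0.205). Without mouse 1 at 6 h, the change at 6 h was 2.35 (adjusted p = 4.35e-05). From 1 h to 6 h Cebpd rose by 1.12 (adjusted p = 0.0132), which was at the threshold without 1 h mouse 3 (0.0503). From 6 h to 24 h it changed by -1.04 (adjusted p = 0.0353), not called without 6 h mouse 1, 2 or 3 (0.0729, 0.0919 and 0.0645) or 24 h mouse 1 or 2 (0.0658 and 0.113).

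**Figure D4:**
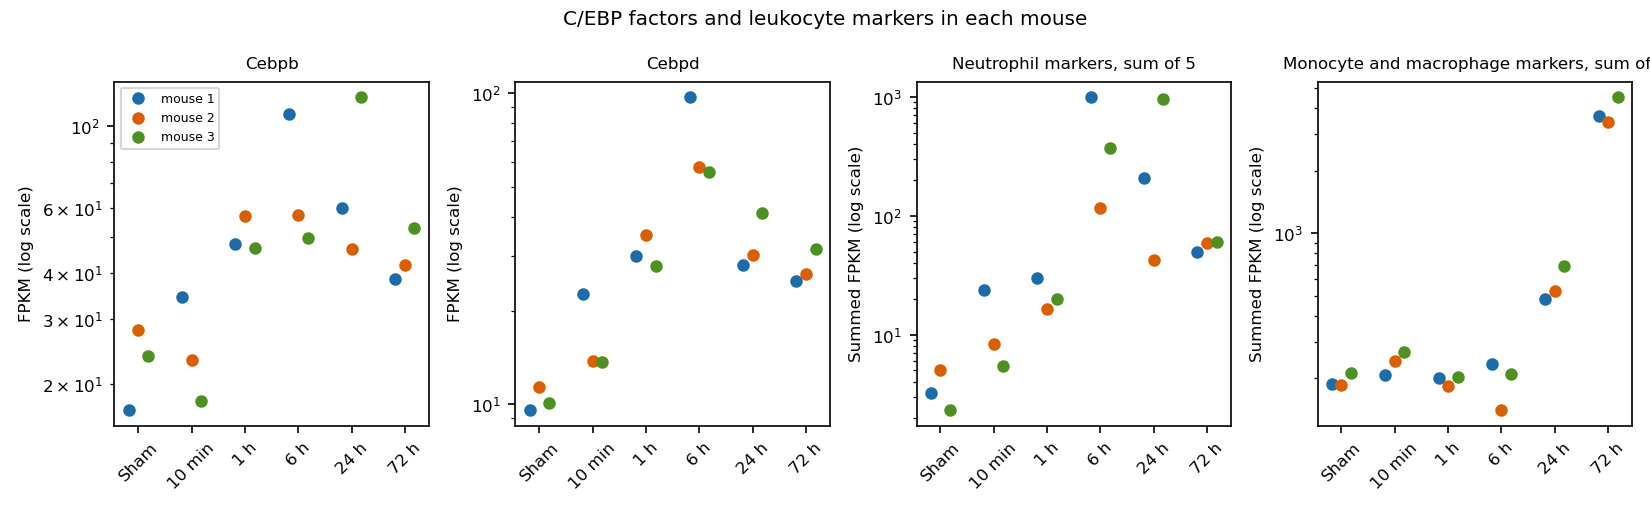
FPKM of Cebpb and Cebpd and summed FPKM of neutrophil markers (5 genes) and of monocyte and macrophage markers (6 genes) in each mouse, on log axes, by group. At 1 h, Cebpb and Cebpd had risen while macrophage sums (183 to 202 FPKM) overlapped those of sham (186 to 211 FPKM), and neutrophil sums reached 16.6 to 29.9 FPKM.

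At 6 h the neutrophil sums were 997, 116 and 375 FPKM in mice 1, 2 and 3, and at 24 h 42.6 to 965 FPKM. Of the 5 markers, 0 were called at 10 min, 2 rose at 1 h and 5 at 6 h, beside 0.669% and 11.6% of all genes. Cxcr2, Retnlg and Csf3r stayed below 1 FPKM in every mouse up to 1 h, and S100a8 in all sham mice. These markers passed the filter only through mice in which they were higher, which favours such calls, so that the counts are a description. At 72 h the neutrophil sums were 49.6 to 60.2 FPKM, and macrophage sums had gone from 186 to 211 FPKM in sham to 3424 to 4526 FPKM. The 6 fibroblast markers summed to 271 to 291 FPKM in sham and 2162 to 2920 FPKM at 72 h. The 5 adipocyte markers stayed at or below 0.836 FPKM in sum in every mouse. The part of these cell types in the levels of the 10 genes was not tested.

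In the order of mean levels, only some neighbours differed beyond their spread. For this order all pairs of groups were compared, and in the 6 pairs not given above the share of all genes called in either direction was 24% for 6 h against 10 min, 31.6% for 24 h against 10 min, 73.9% for 72 h against 10 min, 36.2% for 24 h against 1 h, 75.8% for 72 h against 1 h and 67.1% for 72 h against 6 h. Fkbp5 ran 6 h, 24 h, 1 h, 72 h, 10 min, sham, with neighbours called different between 6 h and 24 h and between 72 h and 10 min. Cebpd ran in the same order, with the same 2 steps called. Zbtb16 ran 6 h, 1 h, 24 h, 10 min, sham, 72 h, and its one step called was the last. Tsc22d3 ran 1 h, 24 h, 6 h, sham, 10 min, 72 h, also with its last step called. Sgk1 ran 1 h, 6 h, 10 min, 24 h, 72 h, sham, with a step called from 24 h to 72 h. Errfi1 ran 6 h, 1 h, 24 h, 10 min, 72 h, sham, with the step down to sham called. Cebpb ran 24 h, 6 h, 1 h, 72 h, 10 min, sham, with the step from 72 h to 10 min called. Nr3c2 ran sham, 10 min, 1 h, 24 h, 6 h, 72 h, with the step from 1 h to 24 h called. For Nr3c1 (sham, 10 min, 72 h, 1 h, 24 h, 6 h) and Hif3a (6 h, 1 h, sham, 10 min, 24 h, 72 h) no pair of neighbours was called. These orders are by mean FPKM, and on the log2 scale of the tests some neighbours ran the other way. These were 1 h and 72 h for Fkbp5, 24 h and 6 h for Tsc22d3, and 10 min and 72 h for Errfi1. None of these pairs was called.

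Over the 18 mice, the genes whose log2(FPKM + 1) ran most like that of each member were taken by Pearson's r, as a description of libraries that share time points and cell content. Fkbp5 was closest to Cyb561 (0.94), Cdc42ep4 (0.94) and Bcl2l1 (0.93), and Zbtb16 to Plin4 (0.96), Rasal2 (0.95) and Dtna (0.94). Tsc22d3 was closest to Homer2 (0.92), Pde1c (0.90) and Esrrb (0.90), and Hif3a to Xdh (0.92), Doc2b (0.91) and BB123696 (0.90). Sgk1 was closest to Rhob (0.93), Cited2 (0.90) and Fosb (0.90), and Errfi1 to Zfp36 (0.91), Egr1 (0.90) and Junb (0.89), of which Fosb, Egr1 and Junb are immediate early genes. Cebpb was closest to Trib1 (0.94), Ptgs2 (0.92) and Gadd45g (0.92), and Cebpd to Klf6 (0.95), Maff (0.94) and Cdkn1a (0.93). Nr3c1 was closest to Wdr92 (0.94), Fam53b (0.91) and Dhrs7 (0.91), and Nr3c2 to Entpd5 (0.98), Osbpl6 (0.97) and Ric8b (0.97).

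Another 24 genes known to be induced by glucocorticoids were listed. Of these, 1 rose at 10 min and 7 rose at 1 h, with 0 lower at both times, beside 0.248% and 0.669% of all genes higher. At 6 h 14 rose and 0 fell, beside 11.6% of all genes higher and 16.8% lower, and at 24 h 9 rose and 1 fell, beside 26.2% and 11.4%. By 72 h 7 had risen and 10 had fallen, beside 53.1% and 24.2% of all genes, or 7 and 13 with median-of-ratios scaling and 6 and 12 with quantile normalization. Their median log2 fold change was 0.24, 0.48, 1.03, 0.56 and -0.19, against the medians of all genes given above. Dusp1, a phosphatase that switches off MAP kinases, was the one called at 10 min (37.8, 45.6 and 49.8 FPKM in sham, 100, 97.5 and 96.5 FPKM at 10 min, log2 fold change 1.13, adjusted p = 0.0142). Zfp36, which destabilizes cytokine mRNAs, rose most at 1 h (3.22, adjusted p = 3.76e-05). The metallothionein Mt2 rose most at 6 h, from 34.4 to 36.5 FPKM in sham to between 3488 and 4027 FPKM (6.70, adjusted p = 2.89e-08). At 24 h Lcn2, an iron carrier of the acute phase, was highest (5.47, adjusted p = 0.00131) and Klf9 fell (-0.63, adjusted p = 0.0491). At 72 h the lipase inhibitor Angptl4 was highest (3.52, adjusted p = 7.32e-08) and Klf15, a regulator of cardiac metabolism, lowest (-1.91, adjusted p = 2.96e-06). Many of these genes also respond to hypoxia, cytokines or other signals. On this list Il1r2 passed the filter only through mice at 6 h and 24 h. Angptl4 was below 1 FPKM in all sham mice. For both, the filter thus favours a rise.

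**Figure D5:**
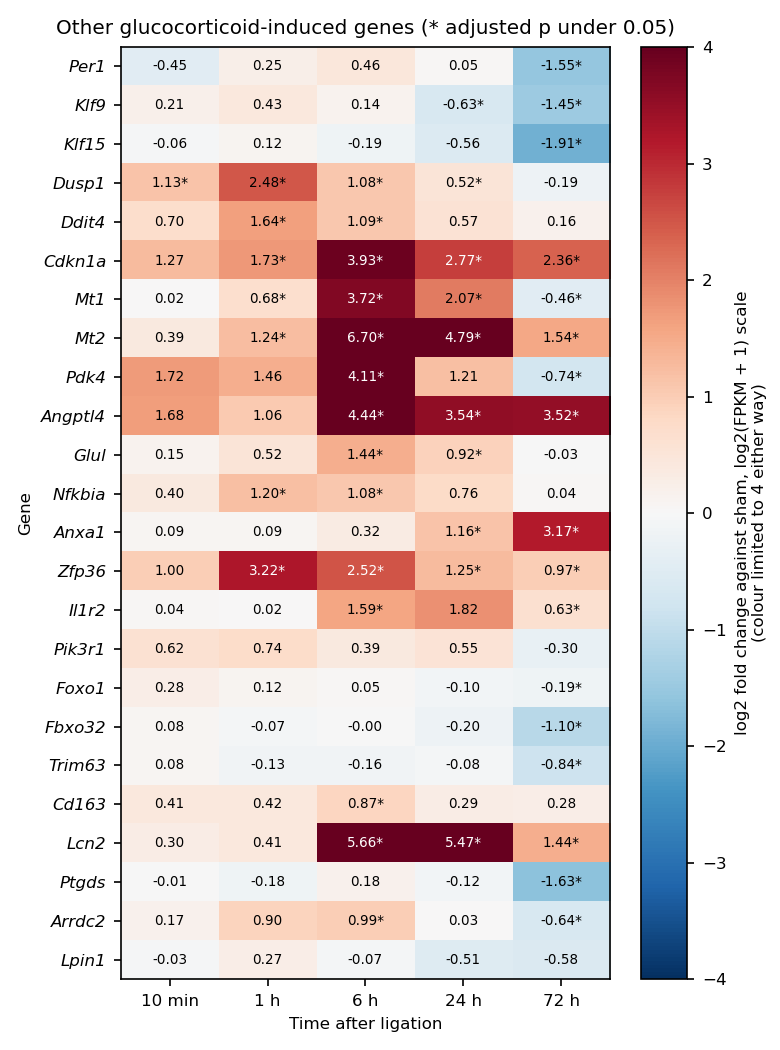
Heat map of the log2 fold change against sham, on the log2(FPKM + 1) scale, of the other 24 glucocorticoid-induced genes (rows) at each time (columns), with an asterisk at an adjusted p under 0.05. At 6 h, 14 genes rose and 0 fell, and at 72 h, 7 rose and 10 fell.

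Of all genes, 11.6% were called higher and 16.8% lower at 6 h. At 24 h these shares were 26.2% and 11.4%, while those of 72 h were 53.1% and 24.2%. They stand beside the counts of every list that follows, and in lists of this size a count near them is no result about the list. Among 12 chaperones and cofactors of the receptor, 0 were called at 10 min or 1 h, 1 rose and 1 fell at 6 h, 4 rose and 1 fell at 24 h, and 5 rose and 5 fell at 72 h. Scaling moved these counts to 3 higher and 4 lower at 24 h, and 2 higher and 6 lower at 72 h, with median-of-ratios and with quantile normalization. Fkbp4 encodes FKBP52, the counterpart of FKBP51 that favours hormone binding. It had 155, 143 and 160 FPKM in sham, 91.1, 103 and 131 FPKM at 6 h, and 63.9, 51.9 and 54.0 FPKM at 72 h. It was the gene of this list that fell at 6 h (-0.51, adjusted p = 0.027) and fell most at 72 h (-1.42, adjusted p = 1.52e-06), with no overlap with sham at either time, while Fkbp5 was above sham at both. Hsp90aa1, the inducible HSP90, rose at 6 h (1.15, adjusted p = 0.0148) and 72 h (1.41, adjusted p = 1.76e-05). Of 5 enzymes of corticosteroid metabolism, 3 were tested. At 72 h Hsd11b1, which regenerates active glucocorticoid, fell (14.7 to 7.46 FPKM in the means, -0.89, adjusted p = 0.000271), and H6pd, which supplies its cofactor, rose (34.3 to 63.8 FPKM, 0.87, adjusted p = 6.07e-06). Of 8 sodium transport genes linked to SGK1, 5 were tested, 1 rose and 1 fell at 6 h, and 2 rose and 2 fell at 72 h, or 0 rose and 3 fell with median-of-ratios scaling. The 3 not tested, Scnn1a, Scnn1b and Scnn1g, are the subunits of the epithelial sodium channel and stayed below 1 FPKM. Of 4 EGF receptor genes, 3 were tested, and at 72 h Egfr was highest (1.35, adjusted p = 1.46e-05) and Erbb3 lowest (-0.43, adjusted p = 0.00233).

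Another 5 genes were listed for their C/EBP names or aliases (Cebpa, Cebpe, Cebpg, Cebpz and Ddit3), which need not make each a factor like C/EBP beta. Of these, 0 were called at 1 h, 2 rose at 6 h, 3 rose at 24 h (1 with median-of-ratios scaling or quantile normalization), and 3 rose and 1 fell at 72 h. Cebpa was highest at 72 h, at 65.3, 64.2 and 84.9 FPKM against 3.08, 5.02 and 4.87 FPKM in sham (log2 fold change 3.78, adjusted p = 1.8e-07). It stood at 6.15, 3.71 and 4.36 FPKM at 1 h, where Cebpb and Cebpd had already risen. Ddit3 was the one that fell at 72 h (-0.45, adjusted p = 0.000564). Of 14 acute-phase and inflammatory genes known to be bound by C/EBP factors, 13 were tested, and the number that rose was 6 at 1 h (0.669% of all genes), 12 at 6 h, 10 at 24 h, then 11 at 72 h, with a median log2 fold change of 0.66, 3.69, 2.79 and 2.79. Socs3, an inhibitor of cytokine signalling, rose most at 1 h (2.41, adjusted p = 1.04e-05), Lcn2 at 6 h (5.66, adjusted p = 2.59e-07) and the chemokine Ccl2 at 72 h (4.60, adjusted p = 7.56e-07). Nos2 fell at 6 h (-0.66, adjusted p = 0.0109). S100a8, of the neutrophil markers, is on this list too, with the limit of the filter given above.

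Of 9 tested paralogues of the 10 genes, 0 were called at 10 min or 1 h, and 3 rose and 2 fell at 6 h. At 72 h 4 rose and 4 fell, beside 53.1% and 24.2% of all genes, or 2 rose and 5 fell with median-of-ratios scaling or quantile normalization. Hif1a was highest at 72 h (11.7 to 32.9 FPKM in the means, 1.41, adjusted p = 2.28e-06) and Epas1, which encodes HIF-2 alpha, lowest (118 to 43.3 FPKM, -1.44, adjusted p = 1.19e-06), while Hif3a was at 0.250 ± 0.086 FPKM (SD, n = 3).

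The 14 clock genes bear on the hour at which mice were taken, and Per1 of this list is also glucocorticoid-induced. At 10 min 2 were higher (Arntl and Clock) and 2 lower (Per2 and Per3) than in sham, beside 0.248% and 0.0978% of all genes, at 1 h 0 were called, and at 6 h 3 were higher and 6 lower, beside 11.6% and 16.8%. At 24 h 1 was higher and 8 lower, beside 26.2% and 11.4%, and at 72 h 3 were higher and 11 lower, beside 53.1% and 24.2%. Arntl was at 0.327 to 0.495 FPKM in sham, 2.67 to 4.56 FPKM at 10 min and 9.20 to 10.8 FPKM at 72 h (adjusted p = 3.43e-08 at 72 h). It passed the filter only through mice after ligation, which favours its rise. Dbp was at 86.5 to 91.5 FPKM in sham and 2.74 to 3.78 FPKM at 72 h (-4.38, adjusted p = 1.11e-08). Glucocorticoid release follows a daily rhythm, and time after ligation and hour of the day cannot be told apart in these groups.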

How the data were processed

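Polyadenylated RNA of 18 hearts was sequenced by the authors, who trimmed reads with cutadapt 1.18, mapped them to mm10 with HISAT2 2.1.0 and estimated expression with StringTie 1.3.4d, per the study's methods and the submitters' processing notes, which also list Cufflinks and Cuffdiff. The deposited table gives the FPKM of each symbol in each mouse, and the annotation used is not given in the sources used here. Spreadsheet conversion had turned 25 symbols into dates. Groups came from the sample titles.

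Values were analysed as log2(FPKM + 1) with limma 3.58.1 in R 4.3.3 (lmFit, eBayes with trend), for each comparison on its own 6 mice, two-sided, with Benjamini-Hochberg adjustment over the genes that reached an FPKM of 1 in any mouse. An exact permutation test of 3 against 3 mice cannot go below p = 0.1, so that none was run. No counting error can be given without counts. All 10 genes, the 3 genes most like each by Pearson's r (predicted genes left out) and, of each list, the highest and lowest gene called were named, and others only where it is said. The members and lists were chosen with earlier results of these data known. Promoters were from the RefSeq table (GRCm38.p6). Alternatives were leaving out each mouse, a smaller pseudocount (0.1), testing every symbol, filtering on mean FPKM, scaling by median of ratios, normalizing by quantiles, fitting all 18 mice together, and a block for replicate number. The steps were tested on simulated data.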

Additional observations from a re-analysis of the deposited data

Results flagged for a closer look

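Zbtb16 and Hif3a were called above sham at 6 h and below sham at 72 h. The log2 difference of 72 h minus 6 h was -3.45 for Zbtb16 and -1.18 for Hif3a. Both genes were picked for opposite calls against the same sham mice, which already fixes the sign of this difference, so that its values are a description. Hif3a was tested at all only because mice at 1 h and 6 h were above 1 FPKM.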

How the results depend on the processing

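A pseudocount of 0.1 and a filter on the mean changed no call of the 10 genes, though Hif3a could not be tested under the latter. Median-of-ratios scaling and quantile normalization turned Sgk1 at 72 h to -0.28 and -0.37. With quantile normalization, Sgk1 at 24 h (adjusted p = 0.0614) and Fkbp5 from 6 h to 24 h (0.0539) were no longer called, and Nr3c2 was called lower from 24 h to 72 h (0.0353). Over all genes, they also moved the calls at 10 min from 33 higher and 13 lower to 33 and 25 or 35 and 24, those from 10 min to 1 h from 52 and 28 to 60 and 19 or 61 and 25, those from 1 h to 6 h from 1241 and 1490 to 1572 and 1098 or 1314 and 1477, those at 24 h from 3496 higher and 1516 lower to 2538 and 2317 or 2118 and 2736, those from 6 h to 24 h from 1664 and 258 to 403 and 368 or 371 and 277, and those from 24 h to 72 h from 3963 and 1799 to 3144 and 2741 or 2775 and 3424. Without a filter, 1 gene rose from 1 h to 6 h (2 with the filter) and 2 fell from 6 h to 24 h (5 with it), and Cebpb at 1 h was not called (0.107). Of all genes, 964 then rose from 1 h to 6 h (1241 with the filter) and 131 fell from 6 h to 24 h (258 with it). With all 18 mice in one fit, 3 genes fell at 72 h in place of 5, 1, Nr3c1, rose from 6 h to 24 h in place of 0, and Cebpb at 1 h was not called (0.425). In that fit 2982 of all genes fell at 72 h in place of 3226, and 4848 rose from 6 h to 24 h in place of 1664. Replicate numbers were not taken as pairs, since 5 of 45 same-number correlations of deviations from the group means were over 0.1 (range -0.327 to 0.415) and in 12 of the 45 the same number gave the highest correlation. With the replicate block, 1 gene fell at 24 h in place of 2, and 0 fell from 6 h to 24 h in place of 5. Of all genes, 1211 then fell at 24 h in place of 1516. From 6 h to 24 h, 1 of all 13328 genes rose and 0 fell, so that the 0 among the 10 genes is no result about them. With the block Nr3c1 at 72 h was not called (0.0774), and Cebpb was called lower from 24 h to 72 h (0.0483). Leaving out 1 mouse moved the number of genes called higher to between 0 and 2 at 10 min, 1 and 5 at 24 h, 0 and 4 from 10 min to 1 h, and 1 and 2 from 1 h to 6 h. Over all genes these numbers were 0 to 47, 1262 to 4043, 33 to 76, and 458 to 1321. Leaving out 1 mouse also moved the number called lower to between 1 and 2 at 24 h, 0 and 3 from 1 h to 6 h, and 0 and 4 from 6 h to 24 h. Over all genes these were 366 to 1796, 362 to 1974, and 1 to 354. Of 246 such values of genes called with all mice, 188 kept the call and 58 lost it, and of 294 values of genes not called, 281 stayed so, 12 gained a call and 1 was called in the opposite direction. The last was Errfi1 from 1 h to 6 h, which ranged from -0.38 to 0.25. The cause of these shifts was not tested. With 3 mice a group and no counts, small changes such as that of Nr3c1 at 72 h are at the limit of what the data can show.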
